A study of Mus musculus with 6 samples.

Results

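This account follows 7 genes of cholesterol synthesis and its control, Srebf2, Insig1, Idi1, Sqle, Lss, Cyp51 and Msmo1, through RNA sequencing of the mouse blood progenitor line EML. The members were found by matching the RefSeq accessions of the deposited tables to these symbols, and each gene had 1 entry, so 7 of 23146 entries are described. The members and the other gene lists were chosen with earlier results of these data known. Counts of members set beside the share of all entries are therefore descriptions and not tests. The series has 4 groups: KAI1 knockdown (2 libraries), its knockdown control (2 libraries), KAI1 overexpression (1 library) and its overexpression control (1 library). KAI1 is a tetraspanin of the cell surface, encoded by Cd82. All groups share the EML line, grown in medium with serum and stem cell factor, and the labels give strain BDF1, tissue bone marrow and cell type basophil. The labels give wild-type cells as controls; the vector, the clones and how KAI1 was lowered or raised are not given in the sources used here. Replicate numbers are the labels' own, with nothing on separate cultures, so a p-value covers just the spread between these libraries, which may be technical.

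Cells make cholesterol from acetyl-CoA through mevalonate, isoprenoid units, squalene and lanosterol. When sterols in the endoplasmic reticulum run low, the escort protein SCAP carries the precursor of the transcription factor SREBP-2 to the Golgi, where proteases release the active factor. It then switches on the genes of the synthesis enzymes. INSIG proteins hold SCAP back when sterols are plentiful, and Insig1 is itself a target of SREBP. Proliferating blood cells use the pathway to supply membrane.

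The members fall into regulators and enzymes. Srebf2 encodes SREBP-2 and Insig1 the retention protein. Idi1 encodes an isomerase of isoprenoid units, early in the path, and Sqle encodes squalene epoxidase, the first oxygen-dependent step of the sterol branch. Lss closes the ring to give lanosterol. Cyp51 and Msmo1 then remove methyl groups from the ring system.

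Levels are the authors' RPKM, which scale reads by transcript length and library depth, and differences are on the scale of log2(RPKM + 1). The estimated depth, read off the steps between low values, was 12100000 and 18300000 reads in the KAI1 knockdown, 17900000 and 9310000 in its controls, 18400000 in the KAI1 overexpression and 24300000 in its control. Scaled to transcript length, a member's value in 1 library then rests on an estimated 460 to 4174 reads, and counting error is 1.55% to 4.66% of the value. Cd82, the targeted gene, stood at 7.65 and 6.91 RPKM in the KAI1 knockdown, against 43.9 and 13.8 RPKM in its controls, and at 15.2 RPKM in the KAI1 overexpression, against 11.9 RPKM in its control. Knockdown control replicate 1 stood apart, with 2142 of 10112 entries at least 2-fold from control replicate 2, whereas the KAI1 knockdown libraries differed so in 257. Mast cell and basophil markers (10 genes) summed to 4789 and 4008 RPKM in the KAI1 knockdown and to 42906 and 7621 RPKM in its controls, and to 17233 RPKM in the KAI1 overexpression against 3780 RPKM in its control. Of this list, 9 could be tested in the knockdown and 6 lay below both controls, where 17.0% of all entries did, and 8 of 10 were at least 2-fold higher in the overexpression, where 4.92% of entries were. Fcer1a, the IgE receptor chain that marks mast cells and basophils, had a listed value of 0 in knockdown replicate 1 and control replicate 2 and reached 24.2 RPKM in control replicate 1. Erythroid markers (6 genes with an entry) summed to 2257 and 2604 RPKM in the KAI1 knockdown, 76.5 and 2723 RPKM in its controls, 649 RPKM in the KAI1 overexpression and 2140 RPKM in its control. Neutrophil and monocyte markers (5 genes) summed to 1200 and 909 RPKM in the KAI1 knockdown, 1088 and 1197 RPKM in its controls, 1426 RPKM in the KAI1 overexpression and 1725 RPKM in its control. That sum hides genes that differed in opposite directions. Control replicate 1 held less Mpo than control replicate 2 (7.84 against 538 RPKM) but more Ctsg (1080 against 643 RPKM). The KAI1 overexpression likewise had less Mpo than its control (45.8 against 661 RPKM) and more Ctsg (1295 against 1034 RPKM). Ly6c2 was lower in control replicate 1 than in replicate 2 (0.124 against 14.7 RPKM) and higher in the overexpression (85.8 against 26.2 RPKM). The neutrophil elastase gene Elane lay at or under 0.130 RPKM in every library. The lymphoid list summed to at most 0.837 RPKM in any library, with Cd3e listed at 0 in all 6, and the macrophage list to at most 5.95 RPKM, in control replicate 1. The part of these shifts in the sterol gene values was not tested, and a change in the mix of cells cannot be told apart from a change per cell.

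The promoters of Srebf2, Cyp51, Insig1 and Msmo1 are shown because SREBP acts through short elements there: Srebf2, Cyp51 and Msmo1 hold a match to a relaxed form of its element, and Insig1 and Msmo1 are the members whose knockdown and control libraries lay farthest apart without overlap. They are the 250 bases before the annotated gene start, from RefSeq on GRCm38.p6, printed 5′ to 3′ in the direction of the gene. Capitals mark matches, on either strand, to ATCACNNCA, that relaxed sterol response element, and to CCAAT, the box bound by NF-Y, a partner of SREBP. The tables held a window for 6 of the 7 genes.
Srebf2 (chr15:82147019-82147268, plus strand): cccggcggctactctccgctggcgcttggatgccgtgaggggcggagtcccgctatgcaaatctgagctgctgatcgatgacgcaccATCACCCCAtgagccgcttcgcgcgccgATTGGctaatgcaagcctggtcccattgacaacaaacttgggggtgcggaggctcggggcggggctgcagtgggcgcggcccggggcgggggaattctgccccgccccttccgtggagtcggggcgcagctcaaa
Cyp51 (chr5:4104698-4104947, minus strand): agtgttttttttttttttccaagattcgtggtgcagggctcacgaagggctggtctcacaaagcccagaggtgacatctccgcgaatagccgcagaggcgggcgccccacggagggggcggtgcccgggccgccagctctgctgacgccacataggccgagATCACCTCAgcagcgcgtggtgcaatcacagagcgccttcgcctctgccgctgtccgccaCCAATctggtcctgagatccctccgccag
Insig1 (chr5:28071162-28071411, plus strand): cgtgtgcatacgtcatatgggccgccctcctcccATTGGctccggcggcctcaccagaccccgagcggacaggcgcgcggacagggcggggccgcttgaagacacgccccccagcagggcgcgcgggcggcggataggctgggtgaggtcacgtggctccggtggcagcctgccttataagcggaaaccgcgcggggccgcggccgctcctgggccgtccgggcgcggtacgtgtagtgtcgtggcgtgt
Msmo1 (chr8:64733579-64733828, minus strand): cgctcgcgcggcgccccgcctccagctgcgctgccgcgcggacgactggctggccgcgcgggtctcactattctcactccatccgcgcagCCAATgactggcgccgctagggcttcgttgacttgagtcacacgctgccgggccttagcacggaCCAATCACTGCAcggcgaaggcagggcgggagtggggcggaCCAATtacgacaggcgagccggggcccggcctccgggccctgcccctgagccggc

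The motif search used windows of 250 bases before to 50 after the start, on both strands, with motifs chosen after the promoters were seen. ATCACNNCA was in 3 of the 6, as ATCACCCCA at 163 bases before the start in Srebf2, ATCACCTCA at 89 in Cyp51 and ATCACTGCA at 93 in Msmo1, against 2.77% of all 32851 windows. In Msmo1 this match shares its first bases with a CCAAT box. CCAAT was in 6 of the 6, against 37.4% of all windows, and the GC box GGGCGG bound by Sp1 was in 6 of the 6, against 35.7%. Both are frequent in promoters, and a match is a description of letters only.

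All 7 genes were expressed in every library. Over the 6 libraries Msmo1 averaged 53.5 ± 18.1 RPKM (SD, n = 6) and Idi1 13.4 ± 2.71 RPKM (SD, n = 6), and they were the highest and the lowest member in each library. Sqle (32.1 ± 11.6), Insig1 (32.1 ± 13.1), Srebf2 (30.0 ± 10.3), Lss (27.8 ± 8.19) and Cyp51 (23.0 ± 5.79 RPKM, SD, n = 6 each) lay between them. Neighbours in this order of 5 lay closer than the SD of either, and they changed places from library to library.

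**Figure D1:**
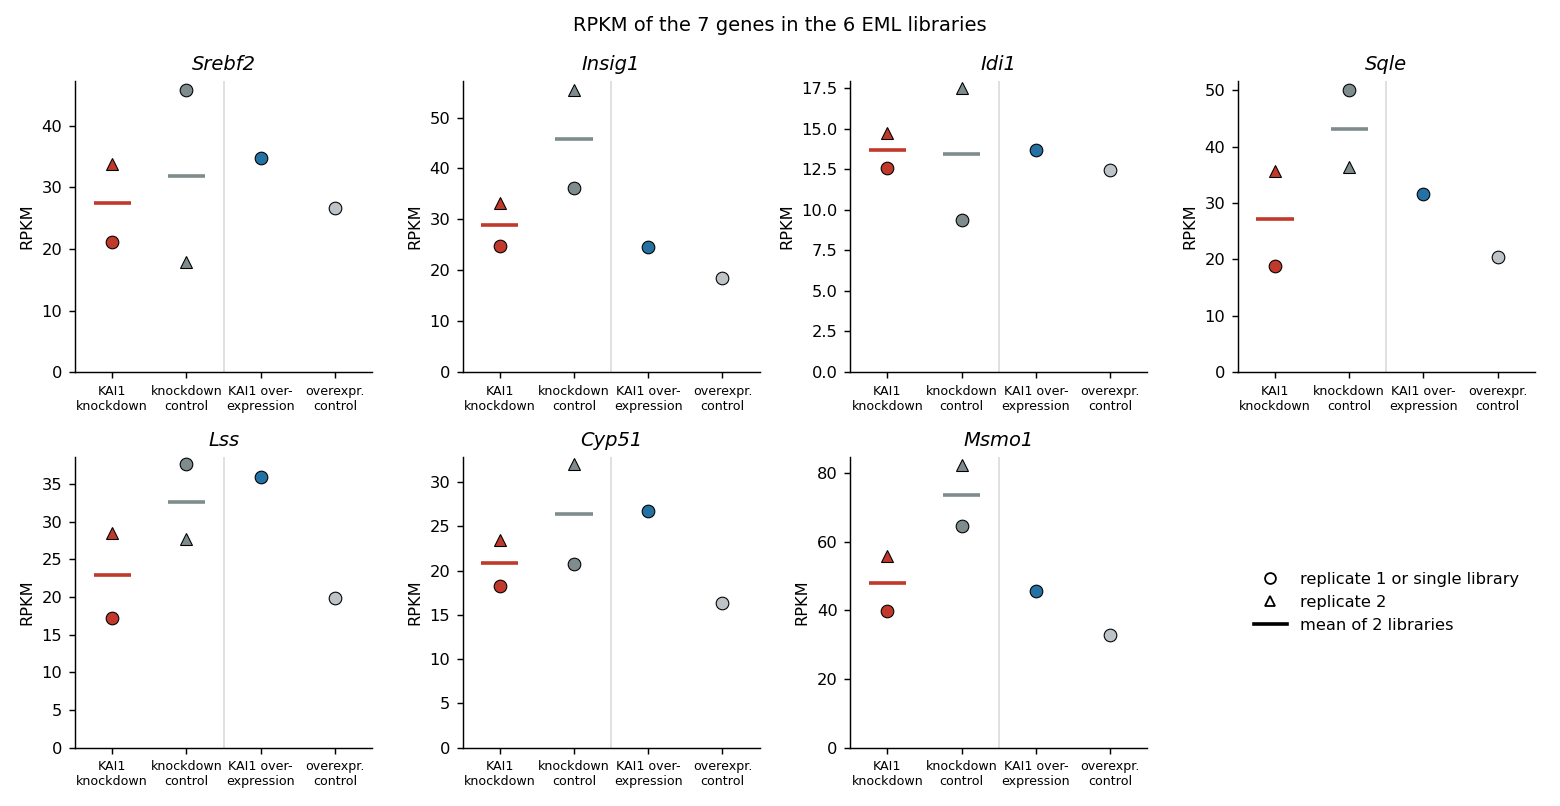
RPKM (vertical axes, from 0) of the 7 genes in KAI1 knockdown, knockdown control, KAI1 overexpression and overexpression control libraries; circles are replicate 1 or a single library, triangles replicate 2, and bars the mean of 2 libraries. Insig1, Msmo1 and, by a narrow margin, Sqle have both knockdown libraries below both controls, and the overexpression library is above its control in each panel.

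The knockdown comparison asks how these RNAs stood with KAI1 lowered. Cd82 RNA was reduced and not absent, at 7.65 and 6.91 RPKM. Its controls, at 43.9 and 13.8 RPKM, were themselves unlike. None of the 7 members passed limma's test, which called 3 of 10113 entries (0.0297%) at an adjusted p under 0.05, and 0 members had an unadjusted p under 0.05, against 3.32% of entries. The mean difference was below 0 in 6 of the 7, where 47.0% of all entries tested were. The median over the members was -0.52, against 0.028 over all entries tested. Insig1, Sqle and Msmo1 had both knockdown libraries below both controls, 3 of 7, where 17.0% of all entries did so, and 0 members had both above, against 21.5%. The smallest two-sided p an exact permutation of 2 against 2 libraries allows is 0.333, so no single gene can pass such a test here.

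Among the regulators, Insig1 (mm9 chromosome 5, 28397952 to 28405202) measured 24.7 and 33.2 RPKM in the KAI1 knockdown, against 36.1 and 55.3 RPKM in its controls. The groups did not overlap, and the gap between the nearest libraries was small beside the gap between the controls. The means were 29.0 ± 6.03 and 45.7 ± 13.6 RPKM (SD, n = 2 each), a difference of -0.62 (SE 0.33; limma adjusted p = 0.83). In RefSeq on GRCm38 a long noncoding gene, Gm35223, spans Insig1, and with the strand of the libraries not given in the sources used here their reads cannot be told apart.

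Srebf2 (chromosome 15, 81977699 to 82035390) stood at 21.2 and 33.8 RPKM in the KAI1 knockdown, against 45.9 and 17.8 RPKM in its controls. The controls bracket both knockdown libraries and are themselves 2.58-fold apart, the widest control gap of any member. The difference was -0.098 (SE 0.54; limma adjusted p = 0.97). Leaving out control replicate 1 gave 0.56, leaving out control replicate 2 gave -0.76 and leaving out knockdown replicate 1 gave 0.23, so the direction rests on which library is used (limma adjusted p = 0.504, 0.21 and 1.0). Mir33, the microRNA in an intron of Srebf2, which targets cholesterol export genes, was listed at 0 in all 6 libraries. Its entry carries the span of Srebf2, and the 0 is not taken as a measure of the microRNA.

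Of the enzymes, Idi1 (chromosome 13, 8884852 to 8891642) stood at 12.6 and 14.8 RPKM in the KAI1 knockdown, against 9.37 and 17.5 RPKM in its controls. Here too the controls bracket the knockdown pair, and the difference of 0.079 (SE 0.36; limma adjusted p = 0.963) became -0.34 when control replicate 1 was left out, 0.50 when control replicate 2 was and -0.028 when knockdown replicate 2 was (adjusted p = 0.491, 0.17 and 1.0). Its paralog Idi2 lay at or under 0.178 RPKM in every library.

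Sqle (chromosome 15, 59146647 to 59162748) stood at 18.7 and 35.6 RPKM in the KAI1 knockdown, against 50.1 and 36.3 RPKM in its controls. Knockdown replicate 2 and control replicate 2 nearly touch, so the lack of overlap is narrower than counting error. The means were 27.2 ± 11.9 and 43.2 ± 9.72 RPKM (SD, n = 2 each), with the largest mean difference of the 7 genes, -0.70 (SE 0.40; limma adjusted p = 0.83). Leaving out knockdown replicate 1 gave -0.25 and leaving out knockdown replicate 2 gave -1.15, and neither passed (adjusted p = 1.0 in both).

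Lss (chromosome 10, 75994372 to 76024971, a span it shares in the tables with the noncoding gene 4930483K19Rik, which lay at or under 0.506 RPKM) stood at 17.3 and 28.5 RPKM in the KAI1 knockdown, against 37.6 and 27.7 RPKM in its controls. Only knockdown replicate 1 lay clear of both controls. The difference was -0.52 (SE 0.35; limma adjusted p = 0.83), and it was -0.17 without knockdown replicate 1 (adjusted p = 1.0).

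Cyp51 (chromosome 5, 4080674 to 4104697) stood at 18.3 and 23.5 RPKM in the KAI1 knockdown, against 20.8 and 32.1 RPKM in its controls. The groups overlapped, and the difference was -0.31 (SE 0.32; limma adjusted p = 0.845). It depended on the control used, at -0.0045 against replicate 1 alone and -0.61 against replicate 2 alone (limma adjusted p = 0.993 and 0.407).

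Msmo1 (chromosome 8, 67196942 to 67212375) stood at 40.0 and 55.7 RPKM in the KAI1 knockdown, against 64.7 and 82.3 RPKM in its controls. Both knockdown libraries lay below both controls, with no overlap. Knockdown replicate 2 minus control replicate 1, the nearest libraries, was -0.21. Control replicate 1 minus control replicate 2 was -0.34, so the gap between the groups was smaller than that between the controls. The means were 47.9 ± 11.1 and 73.5 ± 12.5 RPKM (SD, n = 2 each), a difference of -0.62 (SE 0.30), which had the smallest p of the members (unadjusted p = 0.103, limma adjusted p = 0.83). It stayed below 0 with each library left out in turn, from -0.85 to -0.38, and passed in none (adjusted p from 0.309 to 1.0).

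The 2 knockdown libraries were not alike. KAI1 knockdown replicate 1 lay below replicate 2 in all 7 members, by a median of -0.47, where 54.8% of all entries lay that way. Against control replicate 1 and control replicate 2 alike, knockdown replicate 1 was lower in 6 of 7 members, by medians of -0.68 and -0.78, where 49.0% and 47.2% of entries were lower. Knockdown replicate 2 was lower in 5 of 7 against each control, by medians of -0.21 and -0.23, where 47.4% and 45.9% of entries were lower. The median over the members was -0.17 with replicate 2 as the only knockdown library and -0.83 with replicate 1 as the only one.

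The controls differed by gene and not in 1 direction. Srebf2, Sqle and Lss were higher in control replicate 1, while Insig1, Idi1, Cyp51 and Msmo1 were higher in control replicate 2, and each of the 7 reached its highest value of the whole series in 1 of these 2 libraries. Without control replicate 1, 5 of 7 members had both knockdown libraries below the remaining control, where 36.0% of entries did, and Srebf2 alone had both above, where 42.0% of entries did. Without control replicate 2 the count was again 5 of 7 below, where 41.3% of entries did, and Idi1 alone had both above, where 44.2% of entries did. Leaving out KAI1 knockdown replicate 2 likewise gave 5 of 7 below, where 25.8% of entries did. Leaving out KAI1 knockdown replicate 1 gave 3 of 7 below. The share of all entries was not computed for that run, so its count cannot be set against the others. With 1 library left out limma called 0 members, while it called 0.158% of entries without control replicate 1, 10.3% without control replicate 2 and 0.0% without either knockdown library.

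**Figure D2:**
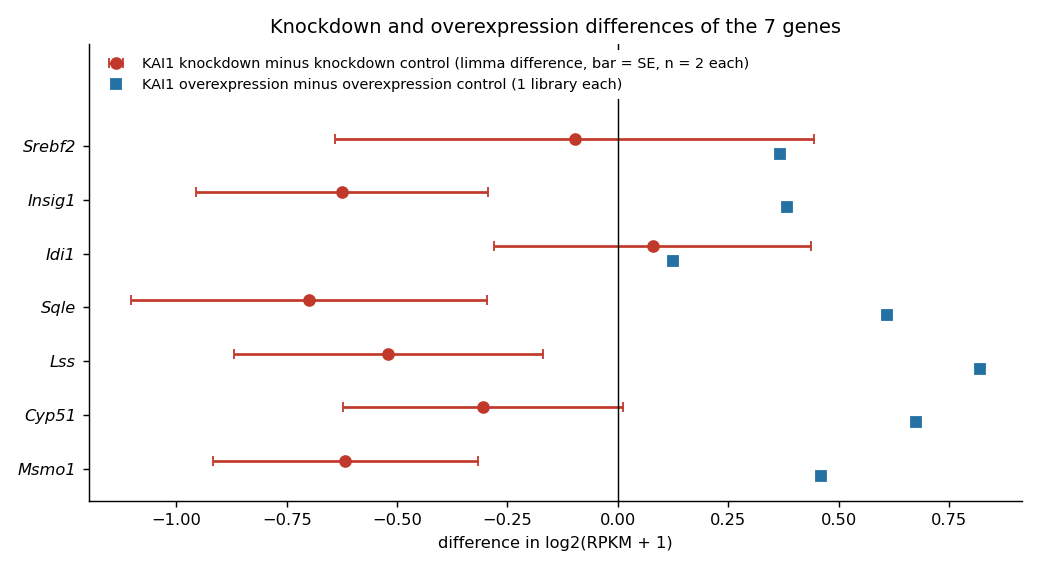
Differences in log2(RPKM + 1) (horizontal axis) of the 7 genes; red circles are KAI1 knockdown minus knockdown control from limma with bars for 1 SE (2 libraries each), and blue squares are KAI1 overexpression minus overexpression control (1 library each, no error). Knockdown differences run from -0.70 (Sqle) to 0.079 (Idi1), and overexpression differences from 0.13 (Idi1) to 0.82 (Lss).

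The overexpression comparison asks what gain of KAI1 does, with 1 library on each side, no replicate check and no test. The Cd82 RNA itself differed only modestly, at 15.2 RPKM against 11.9 RPKM in the control, and knockdown control replicate 2 had 13.8 RPKM. All 7 members stood above the control in the KAI1 overexpression, where 50.6% of 9936 entries were, with a median difference of 0.46 against 0.0057 over all entries. By size, 3 of 7 were at least 1.5-fold higher on the RPKM + 1 scale, where 10.9% of entries were, and 0 were at least 2-fold higher, where 4.92% were.

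Lss stood at 35.9 RPKM in the KAI1 overexpression, against 19.9 RPKM in its control, the largest difference of the members at 0.82, or 1.77-fold. Cyp51 stood at 26.7 RPKM against 16.4 RPKM in the control (0.67, or 1.6-fold), and Sqle at 31.6 RPKM against 20.4 RPKM in the control (0.61, or 1.53-fold). These 3 enzymes of the sterol branch are those past 1.5-fold, and under quantile normalization Sqle, at 0.58, fell short of it and 2 remained.

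Msmo1, which acts later in the path than Cyp51, stood at 45.5 RPKM in the KAI1 overexpression, against 32.8 RPKM in its control (0.46). The regulators differed less, with Insig1 at 24.5 RPKM against 18.5 RPKM in the control (0.38) and Srebf2 at 34.8 RPKM against 26.7 RPKM in the control (0.37). Idi1, the early enzyme, stood at 13.7 RPKM in the KAI1 overexpression, against 12.5 RPKM in its control, a difference of 0.13.

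Across the series the overexpression control was among the low libraries for these genes. Insig1, Cyp51 and Msmo1 had their lowest value of all 6 libraries in the overexpression control, and all 7 members lay below their own mean over the libraries there. The only other library with all 7 below was KAI1 knockdown replicate 1. The summed level of the members was 153 and 225 RPKM in the KAI1 knockdown, 265 and 269 RPKM in its controls, 213 RPKM in the KAI1 overexpression and 147 RPKM in its control. The overexpression library thus lay within the range of the knockdown libraries, and the overexpression control lay below all of the others.

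Set side by side, 6 of 7 members had a knockdown difference below 0 and an overexpression difference above 0, where 30.3% of 9736 entries measured in both did so. The members were chosen with earlier results of these data known, so this count is no test of a shared response. Idi1 was the exception, with both above 0. Whether the differences of the arms differ from each other was not tested. Mast cell and basophil markers had the same pair of signs, with medians of -2.26 in the knockdown and 2.49 in the overexpression, and their part in the sterol gene values was not tested. Between the knockdown controls the markers lay 2.83 higher in control replicate 1 in the median. Mcpt8 of that list lay the other way, at 160 RPKM in control replicate 1 and 389 RPKM in control replicate 2. Of the members Srebf2, Sqle and Lss were higher in control replicate 1 and the other 4 lower, with a median of -0.34.

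Over the 6 libraries the members followed each other in part. Of the 21 pairs 15 had a positive Pearson r of log2(RPKM + 1), with a median of 0.57, over just 6 libraries. Genes measured in the same library share its depth and scaling, and no share over pairs of other entries is given here. Insig1 and Msmo1 were the closest pair (r = 0.98), followed by Sqle and Lss (r = 0.90). Srebf2 and Idi1 ran against each other (r = -0.69), and Srebf2 had a negative r with Insig1, Idi1, Cyp51 and Msmo1.

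Among 5320 other entries averaging 10 RPKM or more, the 5 whose profile was most like the mean profile of the members over the 6 libraries were Fahd2a, Trpt1, Ssr3, Stard4 and Pik3ip1, with Pearson r of 0.97, 0.97, 0.95, 0.95 and 0.94. Stard4 encodes a sterol carrier of the cytosol and stood at 10.1 and 12.6 RPKM in the KAI1 knockdown, against 17.1 and 15.9 RPKM in its controls, and at 12.6 RPKM in the KAI1 overexpression, against 8.53 RPKM in its control. Of 23 reported genes on the sterol and fatty acid lists at this level, 1 stood among the 100 most alike of the 5320, Stard4. The others were spread from r = 0.74 (Lbr) to r = -0.47 (Acss2).

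**Figure D3:**
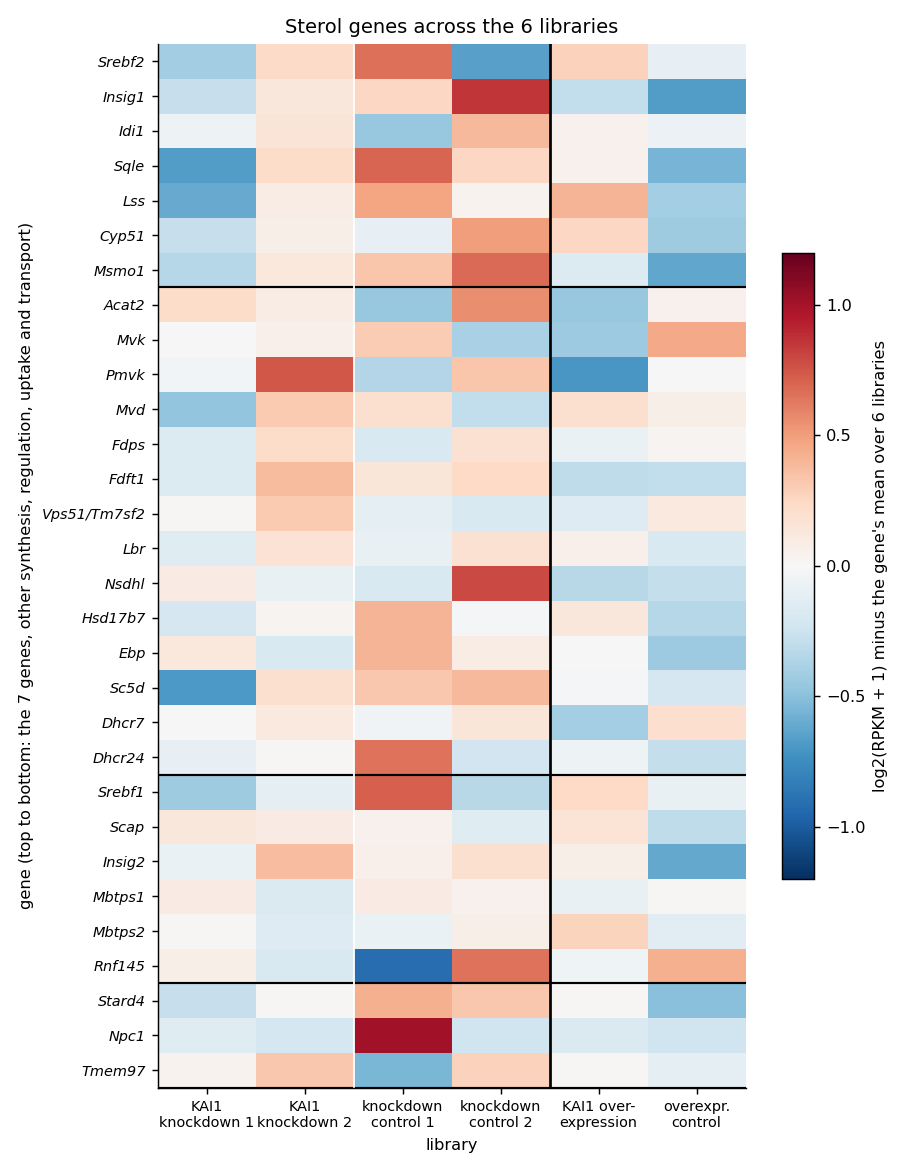
Level of each sterol gene (rows) in each library (columns) as log2(RPKM + 1) minus the gene's mean over the 6 libraries, red above and blue below; lines part the 7 genes, the other synthesis genes, regulation, and uptake and transport. The top block is blue throughout in KAI1 knockdown 1 and the overexpression control and red throughout in KAI1 knockdown 2, and of the 14 other synthesis genes 12 also lie above their own mean in KAI1 knockdown 2, 5 in KAI1 knockdown 1 and 6 in the overexpression control.

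Further genes of the pathway were taken as a list of 15. None of the 14 tested passed limma in either direction, and 0 had an unadjusted p under 0.05. Their median difference was -0.027 in the knockdown and -0.025 in the overexpression, 1 lay below both controls, where 17.0% of entries did, and 1 above, where 21.5% did. In the overexpression 6 were higher and 8 lower, where 50.6% and 49.4% of entries were. Hmgcs1, which makes the precursor of mevalonate, was listed at 0 in all 6 libraries at its 2 loci on an unplaced part of chromosome 13, so it has no usable value. The entry with Tm7sf2, a sterol reductase, also carries Vps51, and their reads cannot be told apart.

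Sc5d, a desaturase near the end of the path, stood at 5.11 and 10.3 RPKM in the KAI1 knockdown, against 11.4 and 11.9 RPKM in its controls (-0.61, SE 0.36; limma adjusted p = 0.83), and was the 1 below both controls. Mvk, which phosphorylates mevalonate, was lower in the overexpression, at 15.8 RPKM against 30.1 RPKM in the control (-0.89). Pmvk, the next kinase, stood at 83.0 and 143 RPKM in the KAI1 knockdown, against 66.4 and 107 RPKM in its controls, which overlap (0.36, SE 0.42; limma adjusted p = 0.854). In the KAI1 overexpression Pmvk stood at 52.0 RPKM against 84.8 RPKM in its control and Acat2, a thiolase at the entry to the path, at 129 RPKM against 184 RPKM in its control.

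The list of sterol uptake and transport had 3 tested genes, 0 called, with medians of -0.51 in the knockdown and 0.12 in the overexpression. Stard4 had the smallest p of this list, with both knockdown libraries below both controls (-0.51, SE 0.23; limma adjusted p = 0.83), and an overexpression difference of 0.51. Tmem97, a sterol-regulated membrane protein, stood at 121 and 147 RPKM in the KAI1 knockdown, against 79.7 and 142 RPKM in its controls, and at 119 RPKM in the KAI1 overexpression, against 109 RPKM in its control. Npc1, which exports cholesterol from lysosomes, stood at 5.33 and 5.03 RPKM in the KAI1 knockdown, against 13.1 and 4.93 RPKM in its controls, so control replicate 1 alone stands apart and the knockdown difference was -0.56.

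Of 6 genes that control SREBP, 0 were called, 0 lay below both controls (17.0% of entries did) and 1 above (21.5% did), and the medians were -0.024 in the knockdown and 0.36 in the overexpression. Srebf1, the sister factor of fatty acid synthesis, stood at 10.3 and 13.0 RPKM in the KAI1 knockdown, against 24.0 and 11.0 RPKM in its controls (-0.46, SE 0.43; limma adjusted p = 0.837). Scap, the 1 above both controls, stood at 10.3 and 9.99 RPKM in the KAI1 knockdown, against 9.62 and 8.26 RPKM in its controls. It stood at 10.5 RPKM in the KAI1 overexpression against 7.28 RPKM in its control, and Rnf145, a ubiquitin ligase of the endoplasmic reticulum, at 6.98 RPKM against 10.2 RPKM in its control.

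Of 8 fatty acid synthesis genes tested, 0 were called, with medians of 0.21 in the knockdown and -0.23 in the overexpression. Their knockdown difference was below 0 in 1 gene, where 47.0% of entries were. That count depends on the control used, at 5 of 8 against control replicate 2 alone and 2 of 8 against control replicate 1 alone, where 46.6% and 48.2% of entries were below 0. In the overexpression 7 were lower, where 49.4% of entries were. Acss2, which makes acetyl-CoA from acetate, stood at 42.4 and 38.3 RPKM in the KAI1 knockdown, against 11.9 and 44.1 RPKM in its controls, and at 11.3 RPKM in the KAI1 overexpression, against 48.7 RPKM in its control (-2.02). It was the 1 gene of the list past 2-fold in that arm, where 5.21% of entries were at least 2-fold lower. Fads2, a fatty acid desaturase, stood at 70.8 and 92.8 RPKM in the KAI1 knockdown, against 36.7 and 62.7 RPKM in its controls, with no overlap (0.74, SE 0.37; limma adjusted p = 0.83), and at 43.8 RPKM in the KAI1 overexpression, against 74.9 RPKM in its control.

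Genes of cholesterol efflux, esterification and the sterol sensor LXR were few at this level. Of 4 tested, 0 were called, with medians of 0.0023 in the knockdown and 0.15 in the overexpression. Abcg1, an exporter of cholesterol, stood at 6.17 and 7.44 RPKM in the KAI1 knockdown, against 4.11 and 5.01 RPKM in its controls, with no overlap (0.49, SE 0.24; limma adjusted p = 0.83). In the overexpression Abcg1 stood at 4.57 RPKM, against 3.76 RPKM in the control. Nr1h2, one of the LXR genes, stood at 40.6 and 43.6 RPKM in the KAI1 knockdown, between controls of 64.4 and 22.5 RPKM. Mylip, a ubiquitin ligase induced by LXR, stood at 7.40 RPKM in the KAI1 overexpression against 5.85 RPKM in its control. Abca1 and Nr1h3 lay at or under 0.271 RPKM in every library and Ch25h was listed at 0 in all 6.

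**Figure D4:**
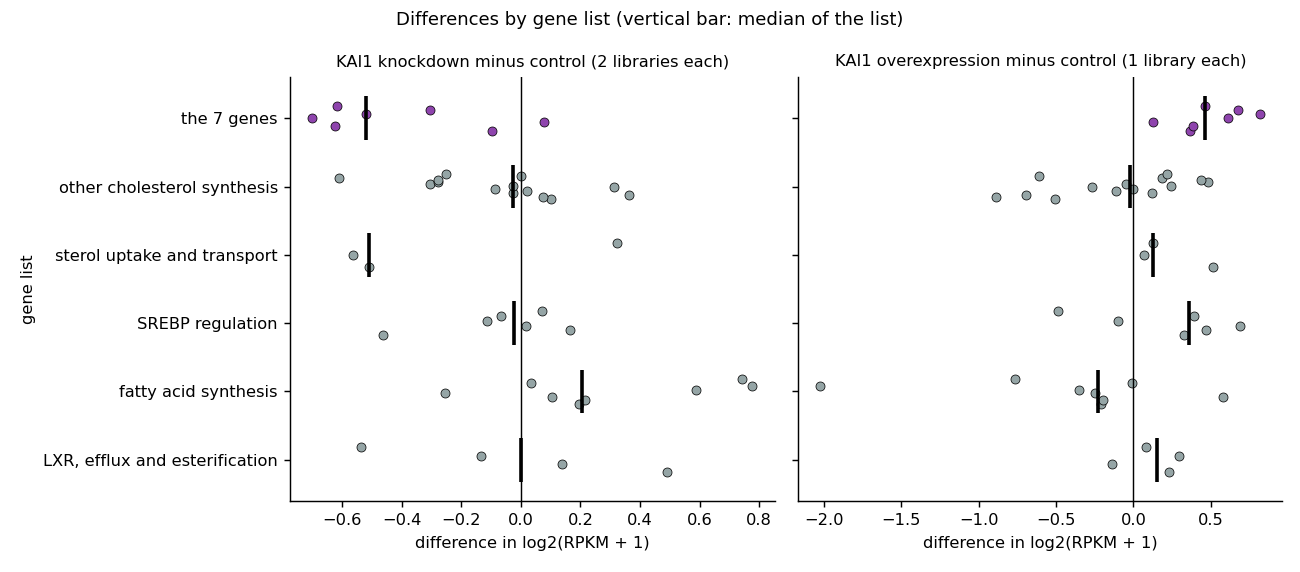
Differences in log2(RPKM + 1) (horizontal axes) of single genes, grouped by list (vertical axis), in the KAI1 knockdown (left, 2 libraries each) and the KAI1 overexpression (right, 1 library each), with a bar at each median. The median of the 7 genes is -0.52 at left and 0.46 at right, while that of the other cholesterol synthesis genes is -0.027 and -0.025. The 7 genes and the lists were chosen with earlier results of these data known, so this contrast is not a test.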

How the data were processed

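The authors deposited for each of the 6 libraries a table of RPKM per transcript entry, per the file headers. TopHat2 2.0.9, Bowtie, Cufflinks and the build mm9 appear, without settings, in the submitters' processing notes. Each table held 23170 rows; 24 repeated an accession and locus, and 23146 entries were used. RefSeq (GRCm38.p6) gave a symbol for 22840, and no coordinate was taken from it for the entries. Coordinates are mm9, with starts moved to count from 1.

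Values were taken as log2(RPKM + 1), and the knockdown was fitted by limma 3.58.1 (R 4.3.3), trend on, over the 10113 entries averaging 1 RPKM or more in that arm, two-sided, with Benjamini-Hochberg adjustment over all entries and a threshold of 0.05. The overexpression arm was described by size among 9936 entries. Fold changes on this scale understate low genes. The members and lists were chosen with earlier results of these data known, and 4 genes of the lists are not reported here. All members are named. From other lists, the 2 genes with the largest difference in each arm and a mean of at least 5 RPKM are named; Acat2 and genes listed near 0 were added after their values were seen.

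Relative depth came from the steps of low values, where whole reads give fixed ratios. Absolute depth used GENCODE transcript lengths over 146 entries, with quartiles of 14200000 and 19000000 reads for knockdown control replicate 1. Reads per gene are estimates, and their counting error covers counting only. The procedures were tested on simulated data. Alternatives were other filters, pseudocount 0.1, quantile or median scaling, each library left out, and a replicate block.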

Additional observations from a re-analysis of the deposited data

How the results depend on the processing

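Other filters, the smaller pseudocount and both scalings left the direction of all 7 genes in both arms, and 0 members were called by limma under any alternative run. The number of entries called was 3, with 336 at an unadjusted p under 0.05. It was 20 with no filter on low values and 5 with a pseudocount of 0.1, and from 0 to 1045 with 1 library left out: 16 without control replicate 1, 1045 without control replicate 2, and 0 without either knockdown library, with 88 and 58 at an unadjusted p under 0.05 (limma). The group that loses a library keeps 1, which is assumed to vary like the other pair. The members below both controls numbered 3 to 5 and those above 0 to 1 in these runs, and the share of all entries moved as well, with 25.8% to 41.3% below where the count was 5, against 17.0% with all libraries, and 42.0% to 44.2% above where it was 1, against 21.5%. The median over the members ran from -0.83 to -0.17 with 1 library left out. Quantile normalization of all libraries put 4 members below both controls, with Lss added. The share of all entries was not computed for that run. With 1 library left out Srebf2 ran from -0.76 to 0.56 and Idi1 from -0.34 to 0.50, so both changed sign; the cause was not tested. With the replicate number as a block limma called 4 entries and 0 members. Deviations of same-numbered libraries had r = -0.075 over 10113 entries. With 2 libraries in each group, and control replicate 1 standing apart, this r cannot decide whether the numbers pair libraries. In the overexpression arm the median ran from 0.44 to 0.47, and the members past 1.5-fold numbered 2 under quantile normalization and 3 otherwise. Each member's counting error was 4.66% of its value or less; what limits the comparisons was not tested.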
